A study of Mus musculus with 4 samples.

Results

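In the prefrontal cortex of F1 mice with C57BL6J and Spretus parents, 42 autosomal genes outside the listed imprinted domains were read almost wholly from a single parental allele. They came from 11584 autosomal genes with at least 10 reads assigned to a parental allele in each of 2 RNA-seq libraries, out of 46320 gene identifiers in all. A gene was a member when its Spretus share, the percentage of allele-assigned reads that came from the Spretus allele, was under 5% or over 95% in each library. This held for 62 genes, or 0.535% of the 11584. Of these, 19 were left out because they lay in 1 of 13 windows around imprinted domains on 8 chromosomes, and 1 because its symbol began with Ly6, Gstm, H2-, Pcdh or Zfp. The Spretus allele gave the reads of 23 members and the C57 allele those of 19. The members were thus chosen by their own Spretus shares, so their reads and shares are given as a description with no test.

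The study made 2 libraries of RNA-seq and 2 of MethylC-seq, a bisulfite method for methylation at single-cytosine resolution. Every animal was a female of 14 weeks that carried a mutated Xist gene on the maternal allele. Xist RNA coats and shuts down the X chromosome that transcribes it, so in these animals the X that is silenced is fixed, and alleles can be compared within the same cells. Per the labels' protocols, the tissue was pooled from 2 individuals born in separate litters. The labels do not state whether libraries 1 and 2 came from different pools, so the spread between them may be technical. The cross was made in 1 direction, all samples share 1 genotype, and the strain of an allele and the parent it came from cannot be told apart.

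Most autosomal genes are transcribed from both alleles. In an imprinted gene the copy from one parent is silenced by marks set in the germ line, while in a hybrid of distant strains a gene may also be read from one copy because its promoter, its splicing or its presence in the genome differs between the strains. Reads are told apart by sequence variants, so a gene with a near-identical copy elsewhere can also receive or lose reads when they are assigned. Pseudogenes, which are copies of other genes that usually lack a working product, are prone to this.

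RNA library 1 held 4768237 allele-assigned reads and library 2 held 1291903. The Spretus share of all autosomal reads was 47.9% in library 1 and 48.0% in library 2. Xist had 2158 Spretus against 31 C57 reads in library 1 and 795 Spretus against 9 C57 reads in library 2, so almost all reads came from Spretus, and C57 is taken as the maternal allele with the mutation. In library 1 the lists of neuronal, astrocyte, oligodendrocyte, microglial and endothelial markers had 4 of 4 genes at 1 FPKM or more. Choroid plexus markers had 1 of 4 there, Ttr. In library 2 some of these fell below 1 FPKM: Slc32a1 of inhibitory neurons (0.892), Mog of oligodendrocytes (0.820), Aif1 of microglia (0.393), Kdr of endothelium (0.485) and Ttr (0.828). The deposited FPKM, levels per kilobase scaled to library size over both alleles, were a median 5.68 times higher in library 1 than in library 2 over 21293 genes, so levels are set side by side only within a library.

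The members carried few reads. Their summed reads over both libraries ranged from 29 to 477, with a median of 78.5, against a median of 298 for all 11584 genes, and 2 of 42 members lay above that median. Their median level was 3.92 FPKM in library 1 and 0.674 FPKM in library 2, against 10.6 FPKM and 1.84 FPKM for all genes, and 16 and 14 members lay above the median of all. No read of the other allele was found in either library for 25 members, of which 15 were read from Spretus and 10 from C57. The rule itself allows no such read in a library with 20 or fewer reads, and the members' median in library 2 was 20 reads. Over both libraries a count of 0 still allows a share of up to 1.43% for the member with most reads among these 25. For the member with fewest it allows up to 10.3%. In library 2 alone the limit reached 30.0%, for members with 10 reads there. Over all members, 62 of 4270 reads came from the other allele: 23 of 2141 in the Spretus members and 39 of 2129 in the C57 members. All 42 passed the test of allelic imbalance across all genes (edgeR's quasi-likelihood test, adjusted p under 0.05), as did 5.43% of the 11584 genes. The rule used that same contrast, so nothing is read from the count.

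**Figure D1:**
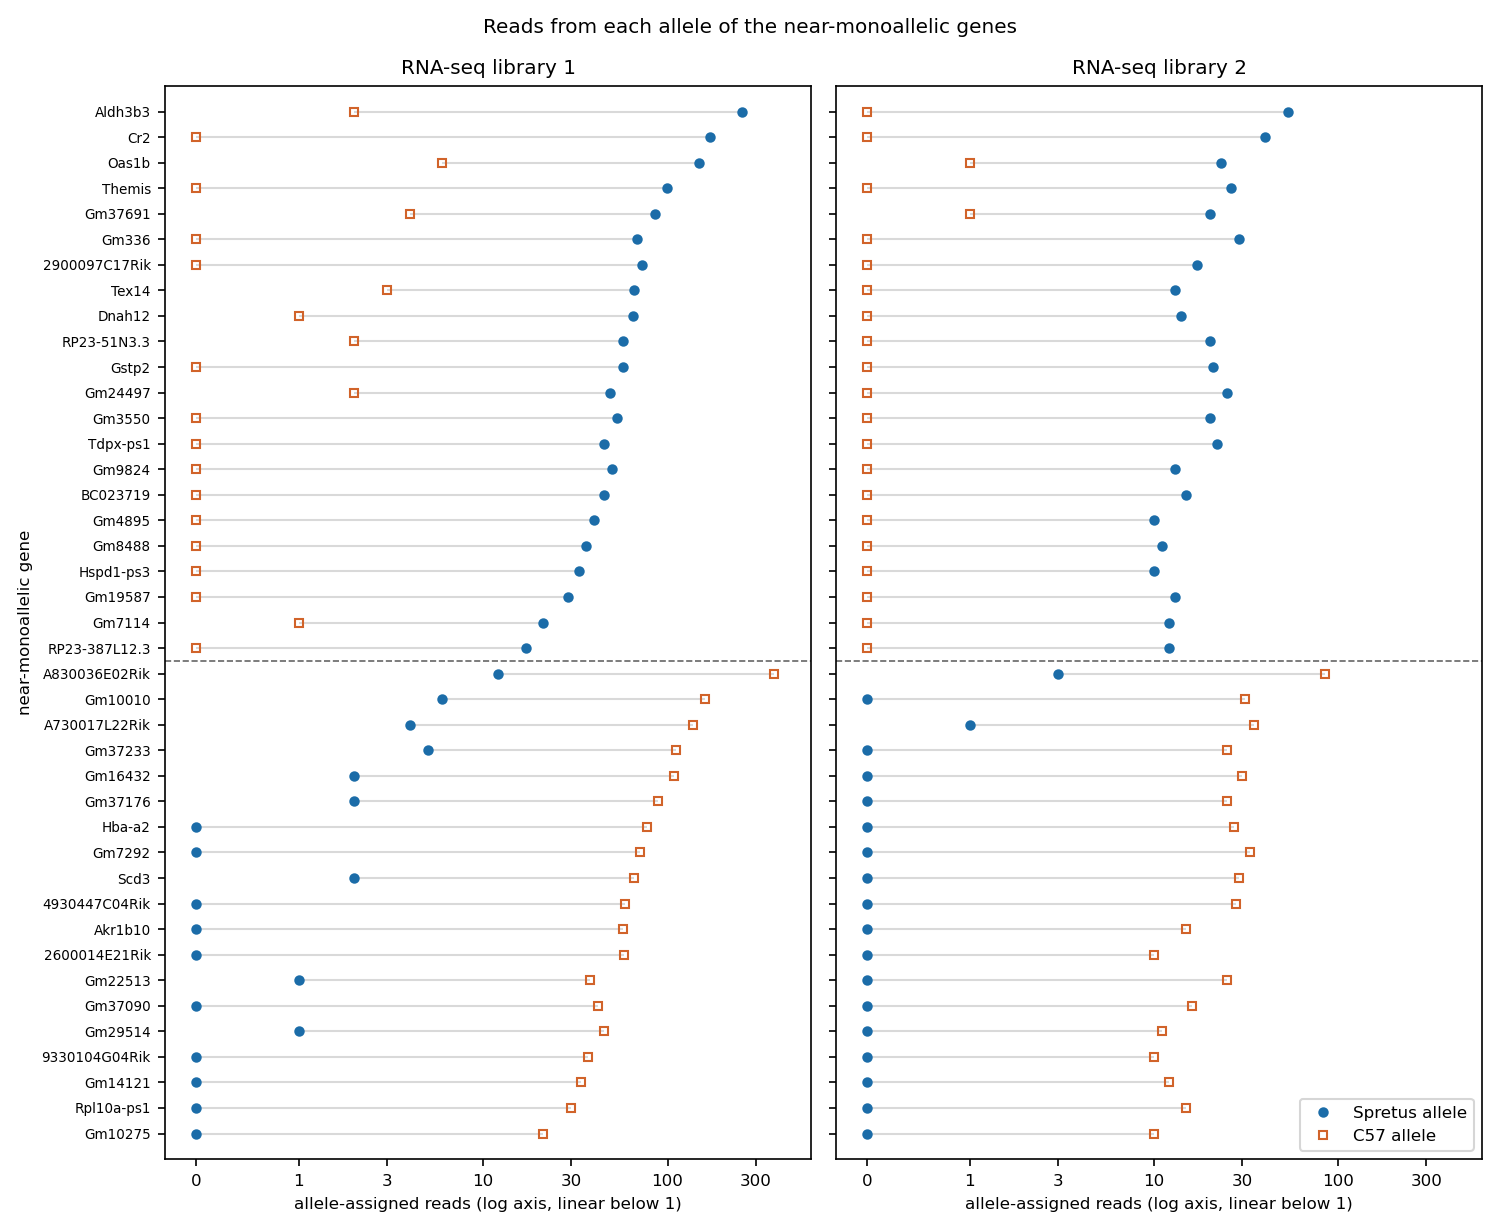
Allele-assigned reads of 41 of the 42 near-monoallelic genes (rows) in RNA-seq library 1 (left) and library 2 (right), on a log axis that is linear below 1. Filled circles are Spretus reads, open squares C57 reads, and the dashed line parts 22 genes read from Spretus from 19 read from C57. For 24 of the genes shown the other allele stood at 0 reads in both panels, which the rule requires in any library with 20 or fewer reads.

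The kinds of gene among the members differed in number from those of the expressed genes as a whole. By the classes of the RefSeq annotation, 12 members (28.6%) were protein-coding genes, against 94.8% of the 11584 genes. Pseudogenes made up 14 members (33.3%), of which 2 are classed as transcribed, against 0.449% of all genes. Long noncoding RNAs made up 6 members (14.3%, against 1.80%) and small nuclear RNAs 2 (4.76%, against 0.0259%). A further 8 members (19.0%, against 2.78%) matched no RefSeq entry. Of the 14 pseudogenes, 11 were read from Spretus and 3 from C57, while 1 of the long noncoding RNAs was read from Spretus and 5 from C57. The class was not used by the rule, but it was compared by counts only. The members stood on 14 autosomes, with 10 on chromosome 1, and 5 autosomes held none.

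**Figure D2:**
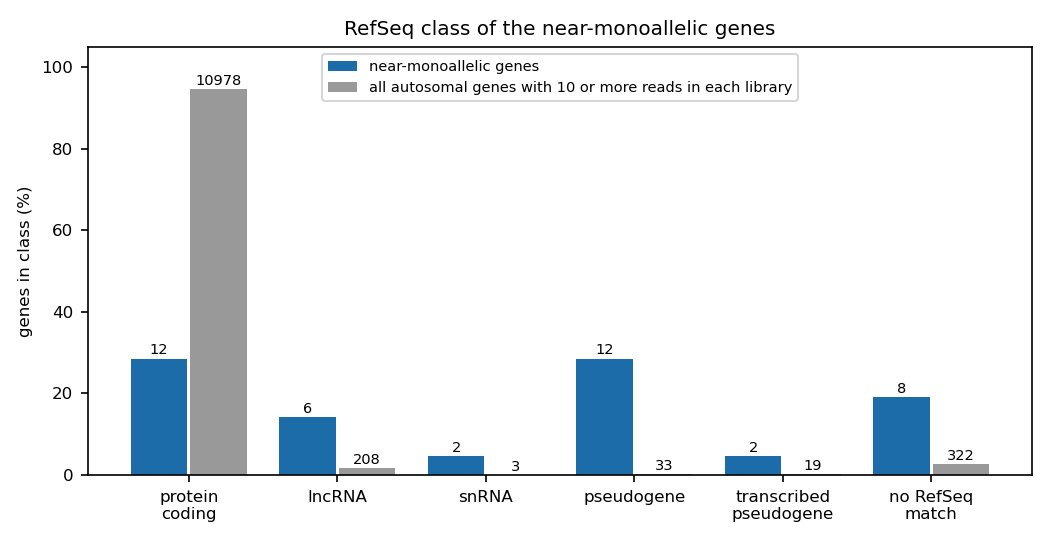
Percentage of genes in each RefSeq class, for the 42 near-monoallelic genes (left bar of each pair) and for all 11584 autosomal genes with at least 10 reads in each library (right bar), with the number of genes above each bar. Pseudogenes, long noncoding RNAs and small nuclear RNAs take larger shares of the near-monoallelic genes, and protein-coding genes 28.6% against 94.8%.

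Among the protein-coding members read from Spretus, Aldh3b3 had the most reads. Aldh3b3 is an aldehyde dehydrogenase that oxidises fatty aldehydes, and it lies at chr19:3958645-3972103 (mm10). It had 254 Spretus against 2 C57 reads in library 1 and 53 Spretus against 0 C57 reads in library 2, a summed Spretus share of 99.4% (95% interval 97.7 to 99.9%). Its relative Aldh3b2 starts 225 bp after it ends and was not a member. Aldh3b2 had 212 Spretus against 17 C57 reads in library 1 and 57 Spretus against 2 C57 reads in library 2. Its share of 94.6% ± 2.85 (SD, n = 2) lay toward Spretus with a log2 ratio of Spretus over C57 of 3.97 (SE 0.29, edgeR adjusted p = 1.45e-06). Aldh3b1, another gene of the cluster, had a share of 57.1% ± 5.90 (SD, n = 2) and did not pass (edgeR adjusted p = 0.304). The Spretus signal was thus measured in the adjoining pair and was not called in Aldh3b1. How reads were split between these relatives is not given in the sources used here.

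Gstp2 lies 68.2 kb from Aldh3b3 and was also read from Spretus. It encodes a pi-class glutathione S-transferase, an enzyme that couples glutathione to reactive compounds, and stands beside its close copy Gstp1. Gstp2 had 57 Spretus against 0 C57 reads in library 1 and 21 Spretus against 0 C57 reads in library 2, at 28.4 FPKM and 4.39 FPKM. Gstp1 had 116 Spretus against 79 C57 reads in library 1 and 47 Spretus against 22 C57 reads in library 2, a share of 63.8% ± 6.10 (SD, n = 2). Its imbalance did not pass the test (edgeR adjusted p = 0.0640), and it did with the library as a block (adjusted p = 1.63e-04). The genes are near-identical copies, so how reads were split between them is uncertain.

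The promoters of both genes are shown because the genes lie side by side and the table holds both. Each sequence runs from 250 bases before to 50 bases after the RefSeq start in GRCm38.p6, the C57BL/6J reference, so it does not show the Spretus letters. Capitals mark CG dinucleotides, the main sites of DNA methylation. Gstp2 is at chr19:4042172-4042471 and Gstp1 at chr19:4037863-4038162, both on the minus strand, with 12 and 20 CG.
Gstp2: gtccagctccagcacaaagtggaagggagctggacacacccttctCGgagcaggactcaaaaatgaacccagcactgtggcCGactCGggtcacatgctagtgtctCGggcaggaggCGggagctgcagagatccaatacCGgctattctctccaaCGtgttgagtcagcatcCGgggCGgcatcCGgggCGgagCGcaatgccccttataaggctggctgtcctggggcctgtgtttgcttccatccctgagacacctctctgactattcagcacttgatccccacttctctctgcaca
Gstp1: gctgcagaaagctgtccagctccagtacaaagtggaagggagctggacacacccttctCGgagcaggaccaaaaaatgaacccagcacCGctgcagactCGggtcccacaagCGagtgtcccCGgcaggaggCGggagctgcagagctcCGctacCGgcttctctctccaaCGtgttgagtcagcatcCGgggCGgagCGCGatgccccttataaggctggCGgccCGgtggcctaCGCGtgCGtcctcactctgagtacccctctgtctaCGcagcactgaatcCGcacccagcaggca

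Cr2 encodes complement receptor 2, a surface receptor for complement fragments known from B cells and follicular dendritic cells, and lies at chr1:195136811-195176716. It had 170 Spretus against 0 C57 reads in library 1 and 40 Spretus against 0 C57 reads in library 2. Its level was 24.0 FPKM in library 1 and 7.15 FPKM in library 2, above the median of all genes in both. The B cell markers Cd79a, Cd79b and Ms4a1 together came to 0.714 FPKM in library 1 and 0.154 FPKM in library 2, and none of the 3 reached 1 FPKM. The antibody light and heavy chain genes Igkc and Ighm stood at 76.8 and 37.4 FPKM in library 1. The part of B cells in the Cr2 reads was not tested, and in bulk tissue fewer cells of a type and less RNA per cell cannot be told apart. The next gene, Cr1l, which codes for a related regulator of complement, was read from both alleles and was not called. Cr1l had 138 Spretus against 141 C57 reads in library 1 and 37 Spretus against 40 C57 reads in library 2, a share of 48.8% ± 0.997 (SD, n = 2; edgeR adjusted p = 0.928). The promoters of this pair are shown because one gene was read from Spretus and its neighbour from both alleles. Cr2 (chr1:195176670-195176969, minus strand) holds 14 CG and Cr1l (chr1:195131521-195131820, minus strand) holds 6.
Cr2: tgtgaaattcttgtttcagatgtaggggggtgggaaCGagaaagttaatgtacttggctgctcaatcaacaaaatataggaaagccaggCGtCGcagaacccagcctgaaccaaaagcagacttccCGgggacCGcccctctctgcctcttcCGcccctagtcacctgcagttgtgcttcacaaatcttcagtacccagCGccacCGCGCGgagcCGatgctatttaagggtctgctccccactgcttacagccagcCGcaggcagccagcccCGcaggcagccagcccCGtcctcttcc
Cr1l: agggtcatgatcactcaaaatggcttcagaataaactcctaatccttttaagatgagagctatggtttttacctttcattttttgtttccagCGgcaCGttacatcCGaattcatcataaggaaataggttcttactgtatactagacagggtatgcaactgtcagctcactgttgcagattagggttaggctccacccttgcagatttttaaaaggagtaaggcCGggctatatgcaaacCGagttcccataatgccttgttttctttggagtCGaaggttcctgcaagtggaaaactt

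Themis acts in T cell receptor signalling during the selection of thymocytes. Themis had 99 Spretus against 0 C57 reads in library 1 and 26 Spretus against 0 C57 reads in library 2, at 3.06 FPKM and 0.674 FPKM. The 4 listed T cell markers (Cd3d, Cd3e, Cd3g and Cd8a) summed to 0.450 FPKM in library 1 and stood at 0 in library 2. Trbc2, a constant gene of the T cell receptor, stood at 13.3 FPKM in library 1 and 2.145 FPKM in library 2. The part of T cells in the Themis reads was not tested. Its paralog Themis2 had 18 Spretus against 20 C57 reads in library 1 and 3 Spretus against 3 C57 reads in library 2, too few for the test. The pseudogene Gm9824 lies 146 kb beyond Themis and was read from Spretus as well, with 50 Spretus against 0 C57 reads in library 1 and 13 Spretus against 0 C57 reads in library 2. Another member on that stretch of chromosome 10, the pseudogene Gm10275, lies 668 kb from Gm9824 and went the other way, with 0 Spretus against 21 C57 reads in library 1 and 0 Spretus against 10 C57 reads in library 2. Aldh3b3-Gstp2 and these genes of chromosome 10 were the members that lay within 1 Mb of each other.

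Of the promoters in the RefSeq table that belong to members, the 3 with the fewest CG are shown, those of Themis, Aldh3b3 and Dnah12. Themis (chr10:28668110-28668409, plus strand, the window at the listed start of the 2 in the table) holds 1 CG and Aldh3b3 (chr19:3958558-3958857, plus strand) holds 3. Dnah12 (chr14:26691304-26691603, plus strand), whose RefSeq start lies before its listed start, holds 1 CG. Over the 16 members with a promoter in the table the median was 8.5 CG, with a range of 1 to 38, against 22 for 8930 other autosomal genes with at least 10 reads in each library and 7 for all 27025 promoters. More than 10 CG stood in 43.8% of the members' promoters, against 82.2% of those of the other expressed genes. The letters TATAAA, searched on both strands, stood in 2 of 16 (12.5%) promoters of members, in 6.43% of those of the other expressed genes and in 14.1% of all promoters. Among the sequences shown they stand in Dnah12 alone, where they are in capitals as well, as overlapping matches on both strands, apart from the CG.
Themis: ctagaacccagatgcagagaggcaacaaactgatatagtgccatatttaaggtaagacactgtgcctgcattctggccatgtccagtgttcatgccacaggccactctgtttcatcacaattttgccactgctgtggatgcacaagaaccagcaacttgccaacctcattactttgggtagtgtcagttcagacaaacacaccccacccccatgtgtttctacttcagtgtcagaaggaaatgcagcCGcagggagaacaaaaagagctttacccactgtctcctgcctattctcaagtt
Aldh3b3: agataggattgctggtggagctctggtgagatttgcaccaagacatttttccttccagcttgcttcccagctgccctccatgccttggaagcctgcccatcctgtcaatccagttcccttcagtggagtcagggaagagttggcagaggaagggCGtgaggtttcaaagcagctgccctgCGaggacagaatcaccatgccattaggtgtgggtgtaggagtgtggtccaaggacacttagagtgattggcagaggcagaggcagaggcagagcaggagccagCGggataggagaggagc
Dnah12: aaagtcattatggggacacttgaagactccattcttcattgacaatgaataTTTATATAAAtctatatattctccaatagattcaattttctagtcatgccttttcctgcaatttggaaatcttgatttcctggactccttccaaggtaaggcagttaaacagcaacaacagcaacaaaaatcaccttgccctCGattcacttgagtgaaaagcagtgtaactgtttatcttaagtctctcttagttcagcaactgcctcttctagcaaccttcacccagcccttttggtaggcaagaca

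Tex14 and Dnah12, also protein-coding and read from Spretus, are known mainly from germ cells and from ciliated cells. Tex14, which is needed for the bridges that join germ cells, had 66 Spretus against 3 C57 reads in library 1 and 13 Spretus against 0 C57 reads in library 2. Tex14 overlaps 12 other listed genes, each with at most 5 allele-assigned reads in a library.

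Dnah12, a heavy chain of the dynein motors of motile cilia, had 65 Spretus against 1 C57 reads in library 1 and 14 Spretus against 0 C57 reads in library 2. It is listed at 2 loci with the same reads. Dnah1, another dynein heavy chain on the same chromosome, went the opposite way and stood just outside the threshold. Dnah1 had 4 Spretus against 60 C57 reads in library 1 and 0 Spretus against 20 C57 reads in library 2, a log2 ratio of -4.15 (SE 0.51, edgeR adjusted p = 1.11e-04). Dnah5 and Dnah9 did not pass, with shares of 49.7% ± 0.465 and 42.8% ± 3.12 (SD, n = 2 each; edgeR adjusted p = 0.942 and 0.653). Dnah2, with 12 Spretus against 13 C57 reads in library 1 and 3 Spretus against 2 C57 reads in library 2, had too few reads for the test. Of the 4 listed relatives of Dnah12, 1 was thus called, toward C57, 2 were not called and 1 could not be tested.

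Oas1b is a member of the oligoadenylate synthetase family of antiviral proteins and is known as a resistance gene against flaviviruses in mice. Laboratory strains such as C57BL/6 carry a premature stop codon in it, and RefSeq classes it as a transcribed pseudogene. Oas1b had 149 Spretus against 6 C57 reads in library 1 and 23 Spretus against 1 C57 reads in library 2, at 4.47 FPKM and 0.514 FPKM. Its neighbour Oas1c had 0 Spretus against 8 C57 reads in library 1 and 0 Spretus against 3 C57 reads in library 2. Oas1a, Oas1g, Oas2 and Oas3 had at most 10 allele-assigned reads in a library, so no relative of Oas1b could be tested.

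BC023719, a transcribed pseudogene in the H2 region of chromosome 17 that holds the class I histocompatibility genes, had 45 Spretus against 0 C57 reads in library 1 and 15 Spretus against 0 C57 reads in library 2. It is listed at 0 FPKM in both libraries. It overlaps H2-T10, which had 24 Spretus against 3 C57 reads in library 1 and 4 Spretus against 0 C57 reads in library 2. Its 3 tested neighbours were all called and went both ways. H2-T22 lay toward C57 with 6 Spretus against 72 C57 reads in library 1 and 1 Spretus against 15 C57 reads in library 2 (log2 ratio -3.45, SE 0.40, edgeR adjusted p = 7.49e-05). H2-T23 lay toward C57 by a log2 ratio of -1.38 (SE 0.34, edgeR adjusted p = 0.0263), and A930015D03Rik toward Spretus by 2.80 (SE 0.49, edgeR adjusted p = 0.00241). These class I genes are close copies of each other, and how their reads were divided is uncertain.

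The protein-coding members read from C57 were Hba-a2, Scd3, Akr1b10, Gm16432 and 4930447C04Rik. Akr1b10 is an aldo-keto reductase, an enzyme that reduces aldehydes. Akr1b10 had 0 Spretus against 57 C57 reads in library 1 and 0 Spretus against 15 C57 reads in library 2. Akr1b3, the aldose reductase gene 66.7 kb away, went the opposite way, with 169 Spretus against 91 C57 reads in library 1 and 45 Spretus against 17 C57 reads in library 2. Its share was 68.8% ± 5.36 (SD, n = 2), a log2 ratio of 1.16 (SE 0.22, edgeR adjusted p = 0.00375). Akr1b8, between them, had 10 Spretus against 14 C57 reads in library 1 and 1 Spretus against 1 C57 reads in library 2, too few for the test, and Akr1b7 had none. So Akr1b10 and Akr1b3, in the same gene cluster, leaned to different alleles.

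Scd3 belongs to the stearoyl-CoA desaturases, which put a double bond into fatty acids. Scd3 had 2 Spretus against 66 C57 reads in library 1 and 0 Spretus against 29 C57 reads in library 2, at 4.88 FPKM and 0.674 FPKM. Scd1 and Scd2, the forms with most reads in this tissue, had shares of 43.8% ± 1.46 and 44.1% ± 1.06 (SD, n = 2 each). Neither passed the test (edgeR adjusted p = 0.686 and 0.821), and both passed toward C57 with the library as a block (adjusted p = 0.0122 and 7.33e-05). Scd4 had 3 Spretus against 4 C57 reads in library 1 and 0 Spretus against 1 C57 reads in library 2.

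Hba-a2 encodes an alpha chain of hemoglobin and is made in red blood cells. Hba-a2 had 0 Spretus against 77 C57 reads in library 1 and 0 Spretus against 27 C57 reads in library 2, at 87.1 FPKM and 5.23 FPKM. The blood markers Hbb-bs, Hba-a1, Hba-a2 and Alas2 summed to 927 FPKM in library 1 and 73.2 FPKM in library 2. The adjacent copy Hba-a1 stood at 291 FPKM and 20.5 FPKM and Hbb-bs at 539 FPKM and 46.6 FPKM, yet neither had any allele-assigned read in either library. For hemoglobin the absence of Spretus reads therefore rests on Hba-a2 alone, and whether Spretus transcripts of it could be assigned to an allele was not tested.

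Gm16432, which RefSeq names Catspere2, is related to a subunit of the calcium channel of sperm, and 4930447C04Rik is a gene that overlaps the homeobox gene Six6. Gm16432 had 2 Spretus against 108 C57 reads in library 1 and 0 Spretus against 30 C57 reads in library 2. 4930447C04Rik had 0 Spretus against 59 C57 reads in library 1 and 0 Spretus against 28 C57 reads in library 2, while Six6 had none. Both members were low, at 2.09 and 3.67 FPKM in library 1.

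Long noncoding RNAs and unmatched transcripts gave the members with the most C57 reads. A830036E02Rik had 12 Spretus against 377 C57 reads in library 1 and 3 Spretus against 85 C57 reads in library 2, the most reads of any member. It overlaps Krt12, the keratin of the corneal epithelium, which also lay toward C57. Krt12 had 5 Spretus against 77 C57 reads in library 1 and 0 Spretus against 23 C57 reads in library 2, a log2 ratio of -4.16 (SE 0.49, edgeR adjusted p = 7.19e-05). The sources used here do not give the use of strand in counting, so reads of the overlapping pair cannot be told apart.

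A730017L22Rik had 4 Spretus against 138 C57 reads in library 1 and 1 Spretus against 35 C57 reads in library 2. It overlaps 4930402H24Rik, which was not called at 47.7% ± 0.680 (SD, n = 2; edgeR adjusted p = 0.997). Gm10010 had 6 Spretus against 160 C57 reads in library 1 and 0 Spretus against 31 C57 reads in library 2. The unmatched transcript RP24-363O21.3, 4015 bp from Gm10010, also lay toward C57, with 15 Spretus against 212 C57 reads in library 1 and 3 Spretus against 44 C57 reads in library 2 (log2 ratio -3.65, SE 0.30, edgeR adjusted p = 3.52e-06). The other tested neighbour, Tspan9, had a summed share of 51.7% and was not called.

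Gm37233 had 5 Spretus against 111 C57 reads in library 1 and 0 Spretus against 25 C57 reads in library 2. Gm37176 had 2 Spretus against 89 C57 reads in library 1 and 0 Spretus against 25 C57 reads in library 2. It lies near Satb1, a chromatin organiser of cortical neurons and lymphocytes, with the unmatched transcripts Gm37266 and Gm37593 beside it. Both neighbours lay toward C57 with log2 ratios of -2.07 and -2.55 (SE 0.36 and 0.47, edgeR adjusted p = 0.00229 and 0.00329), while Satb1 had a summed share of 45.8% and was not called. With DESeq2, which called 2.2% of all genes, neither of these neighbours passed (adjusted p = 0.0658 and 0.527).

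Of the C57 members with fewer reads, Gm37090 had 0 Spretus against 42 C57 reads in library 1 and 0 Spretus against 16 C57 reads in library 2. It overlaps Gm16008, which lay toward C57 as well, with 4 Spretus against 46 C57 reads in library 1 and 1 Spretus against 13 C57 reads in library 2 (log2 ratio -3.37, SE 0.43, edgeR adjusted p = 1.51e-04). Fam132a, which encodes a secreted protein and lies 51.9 kb away, did too (log2 ratio -2.85, SE 0.47, edgeR adjusted p = 0.00162). Gm7292, at 157 FPKM in library 1, 2600014E21Rik, Gm29514 and 9330104G04Rik had between 37 and 71 C57 reads in library 1 and between 10 and 33 in library 2, with 1 Spretus read among them, in Gm29514.

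Small nuclear RNAs had the highest levels among the members, on a scale that divides by length. Gm24497 stood at 2031 FPKM and 255 FPKM and was read from Spretus, with 49 Spretus against 2 C57 reads in library 1 and 25 Spretus against 0 C57 reads in library 2. Gm22513 stood at 13304 FPKM and 5883 FPKM and was read from C57, with 1 Spretus against 38 C57 reads in library 1 and 0 Spretus against 25 C57 reads in library 2. Such RNAs have many near-identical copies in the genome, so their reads are uncertain.

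The noncoding RNA Norad, listed as 2900097C17Rik, binds Pumilio proteins and takes part in keeping the genome stable. The listed locus, chr2:156391831-156392979, covers only a part of Norad in RefSeq, which starts at position 156388063, so the values below are those of that part. At 104 FPKM in library 1 and 14.5 FPKM in library 2, its level was the second highest among the members read from Spretus, after Gm24497. Norad had 73 Spretus against 0 C57 reads in library 1 and 17 Spretus against 0 C57 reads in library 2. Its 4 tested neighbours Phf20, Cnbd2, Scand1 and Epb4.1l1 had summed shares between 40.3% and 54.2%, and none was called. With the library as a block Phf20 was called, toward Spretus like Norad (log2 ratio 0.38, adjusted p = 2.02e-04), where that fit called 22.5% of all genes.

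Several pseudogene members carry the name of a parent gene that was itself measured. Rpl10a-ps1, a copy of the ribosomal protein gene Rpl10a, had 0 Spretus against 30 C57 reads in library 1 and 0 Spretus against 15 C57 reads in library 2. Rpl10a leaned the opposite way, with 132 Spretus against 74 C57 reads in library 1 and 49 Spretus against 18 C57 reads in library 2 (68.6% ± 6.40, SD, n = 2; log2 ratio 1.19, SE 0.25, edgeR adjusted p = 0.00928). Tdpx-ps1, a copy of the peroxiredoxin gene Prdx2 that RefSeq names Prdx2-ps1, had 45 Spretus against 0 C57 reads in library 1 and 22 Spretus against 0 C57 reads in library 2. Prdx2 had a share of 57.2% ± 5.17 (SD, n = 2), which did not pass (edgeR adjusted p = 0.131) and did with the library as a block (adjusted p = 0.00179). Hspd1-ps3, a copy of the mitochondrial chaperonin gene Hspd1, had 33 Spretus against 0 C57 reads in library 1 and 10 Spretus against 0 C57 reads in library 2. Hspd1 was not called at 45.8% ± 3.57 (SD, n = 2; edgeR adjusted p = 0.893). Tdpx-ps1 lies within Cntnap5b, whose share was 51.3% ± 1.07 (SD, n = 2; edgeR adjusted p = 0.644), so the host gene was read from both alleles around it. The sources used here do not give how reads were split between a pseudogene and its parent.

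The other pseudogene members read from Spretus were Gm336, Gm3550, Gm4895, Gm8488, Gm19587 and Gm7114. They had between 21 and 68 Spretus reads in library 1 and between 10 and 29 in library 2, and a single C57 read in all, in Gm7114. Gm14121 was the remaining pseudogene read from C57, with 0 Spretus against 34 C57 reads in library 1 and 0 Spretus against 12 C57 reads in library 2. Among unmatched transcripts, RP23-51N3.3 had 57 Spretus against 2 C57 reads in library 1 and 20 Spretus against 0 C57 reads in library 2. It lies within Gon4l, which was not called at 44.9% ± 0.220 (SD, n = 2; edgeR adjusted p = 0.737). Its neighbour 5830417I10Rik, 19.4 kb away, lay toward Spretus with 51 Spretus against 10 C57 reads in library 1 and 11 Spretus against 1 C57 reads in library 2 (log2 ratio 2.60, SE 0.38, edgeR adjusted p = 6.08e-04). RP23-387L12.3 had 17 Spretus against 0 C57 reads in library 1 and 12 Spretus against 0 C57 reads in library 2, the fewest reads of any member.

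Of 26 relatives listed for the named members and pseudogenes, 13 had enough reads to test. The edgeR test called 3 of them toward Spretus and 1 toward C57, where it called 5.43% of all genes. With the library as a block 8 were called, where that fit called 22.5% of all genes. The list of relatives was drawn up after the members' values were known.

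**Figure D3:**
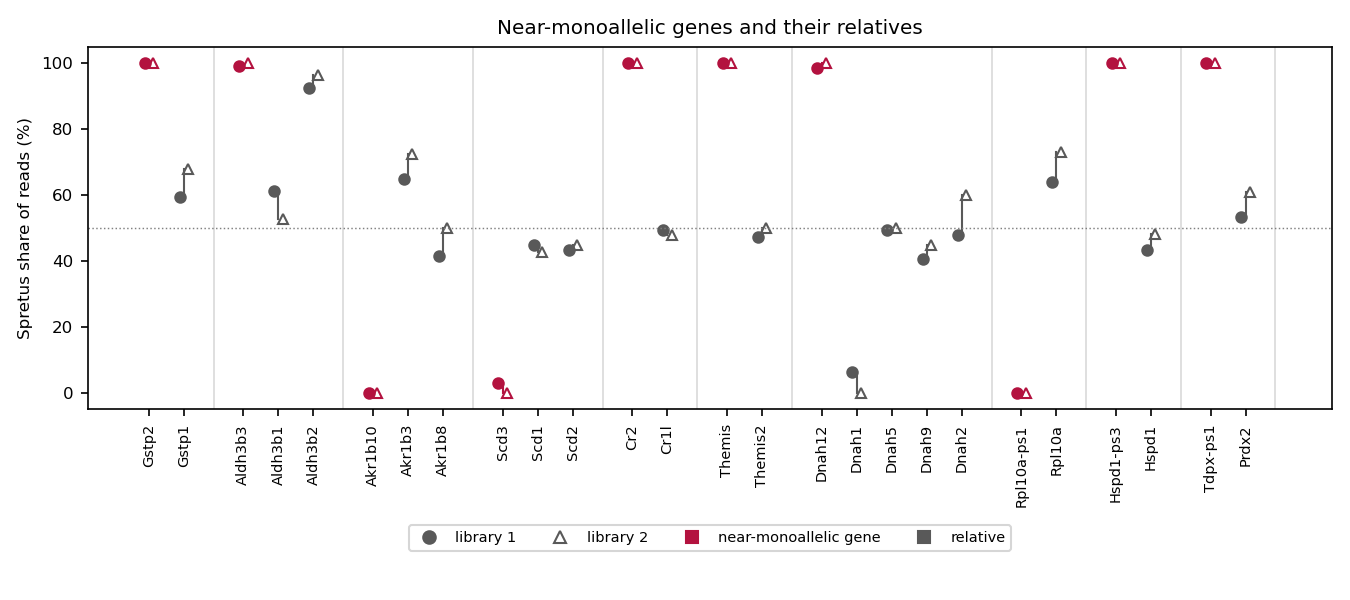
Spretus share of allele-assigned reads (percent) of near-monoallelic genes (red) and their relatives (grey), with a circle for library 1 and a triangle for library 2. Vertical lines part the families and the dotted line marks 50%. The members sit near 0 or 100%, Aldh3b2 lies on the side of its member, Akr1b3, Dnah1 and Rpl10a lie opposite theirs, and Cr1l, Scd1, Scd2 and Hspd1 lie between 42.8 and 49.5%.

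The genes around the members were mostly read from both alleles. Among genes that did not overlap a member and lay within 100 kb of it, 88 had enough reads to test, around 29 members. The edgeR test called 10 of them (11.4%), where it called 5.43% of all 11584 genes. Of these 10 calls, 4 lay toward Spretus and 6 toward C57, against 2.39% and 3.04% of all genes. Set against the member, 7 lay toward the allele of the member and 3 toward the other. They stood around 7 members. Without the H2 region gene BC023719 there were 7 calls among 85 neighbours (8.24%). Among the 50 neighbours within 50 kb, 5 were called and all 5 lay toward the member's allele. Gm37266 and Gm37593 among them stand beside the same member, Gm37176, and DESeq2 called neither. Within 500 kb 21 of 371 (5.66%) were called, of which 11 lay toward the member's allele. With the library as a block 27 of the 88 were called (30.7%), 17 of them toward the member's allele, where that fit called 22.5% of all genes. The median summed share of the neighbours was 48.6% around genes read from Spretus and 46.9% around genes read from C57, against 48.1% for all genes. The middle 50% of all genes ran from 44.3 to 51.3%, a spread of single genes that does not measure how far a median may vary. The difference between these percentages was not tested.

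**Figure D4:**
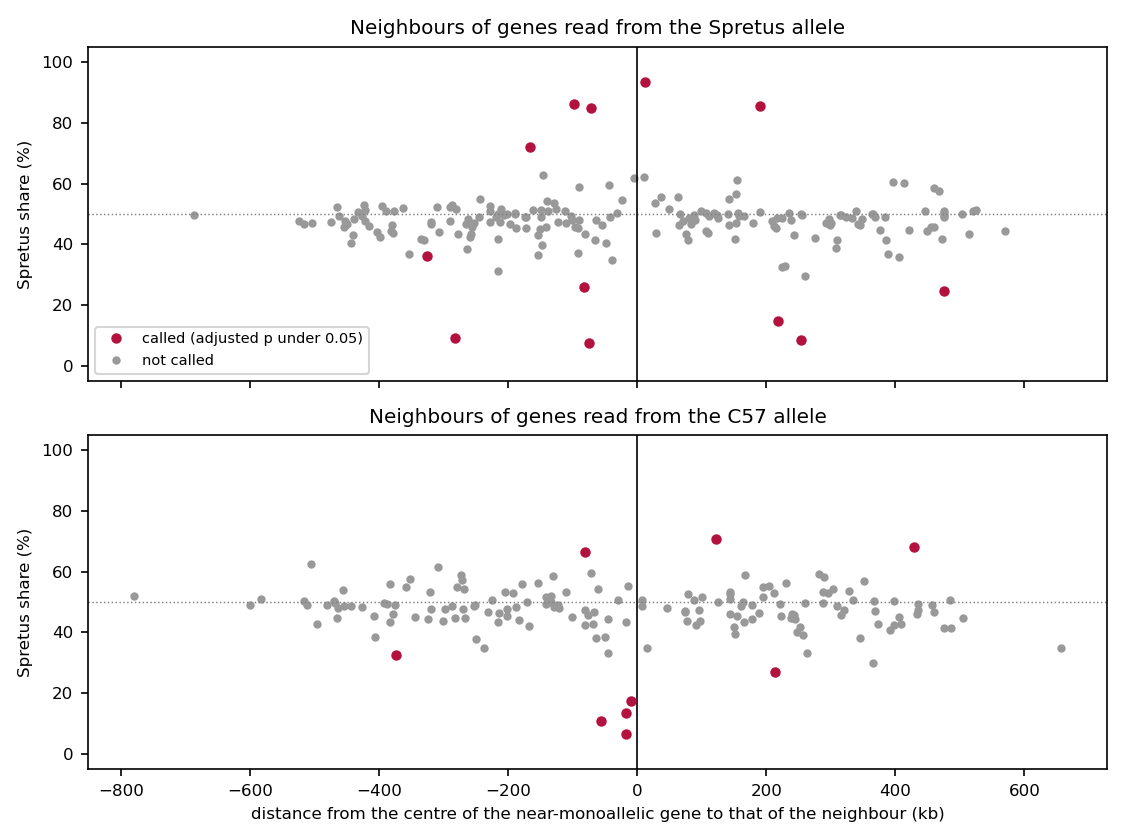
Spretus share over both libraries (percent) of tested genes within 500 kb of a near-monoallelic gene, against the distance between gene centres in kb, for genes read from Spretus (top) and from C57 (bottom). Red points were called (edgeR, adjusted p under 0.05), grey points were not, and the dotted line marks 50%. Called genes are scattered among others near 50%, and within 100 kb 10 of 88 were called.

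A listed gene overlapped 18 of the members, and 24 overlapped none. Of the overlapping genes, 7 had enough reads to test. Krt12 and Gm16008, given above, were called toward C57 like their members, where 5.43% of all genes were called and 3.04% toward C57. Cntnap5b, 4930402H24Rik, Gon4l, Brinp3 and Lamb3 were not called. Brinp3, which overlaps the noncoding RNA Gm29514, had a share of 43.0% ± 2.55 (SD, n = 2; edgeR adjusted p = 0.519). Lamb3, a laminin chain gene that overlaps Gm37691, had shares of 64.4% in library 1 and 80.0% in library 2 (edgeR adjusted p = 0.0661, and 0.0161 with the library as a block). Gm37691 itself had 85 Spretus against 4 C57 reads in library 1 and 20 Spretus against 1 C57 reads in library 2.

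The thresholds cut through a continuous range of shares. Just inside the upper threshold, the lower of the 2 library shares was 95.2% for Gm37691, 95.5% for Gm7114, 95.7% for Tex14, 95.8% for Oas1b and 96.1% for Gm24497. Just outside it, the lower share was 94.9% for RP24-323L24.1, 93.2% for Pnpla1, 92.6% for Aldh3b2, 91.8% for Gm9936 and 91.7% for RP23-409I5.4. Just inside the lower threshold, the higher share was 4.31% for Gm37233, 3.61% for Gm10010, 3.41% for A830036E02Rik, 2.94% for Scd3 and 2.82% for A730017L22Rik. Just outside it, the higher share was 5.26% for Dkkl1, 5.77% for Gm11263, 5.88% for Gm14148, 6.10% for Krt12 and 6.25% for Dnah1.

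A region whose methylation differed between the alleles lay within 10 kb of 2 members, Tex14 and Gm16432. The authors' list holds 1006 autosomal regions with levels, of which 268 were higher on Spretus. Of all 11584 genes 4.15% had a listed region within 10 kb, close to the share of 2 in 42 among the members. A listed region overlapped 1 member, where 2.75% of all genes had one. Both regions near members were at least 200 bp long with a difference in level of at least 0.5, and 1.1% of all genes had such a region within 10 kb. The difference between these shares was not tested. In Tex14, read from Spretus, the region chr11:87444921-87445536 (615 bp) lay inside the gene, 39.9 kb from its listed start, with a methylation level of 0.765 on Spretus and 0.128 on C57. At Gm16432, read from C57, the region chr1:177983000-177983238 (238 bp) had a level of 0.731 on Spretus and 0 on C57. It lay 185 bp before the listed start of the gene and covered the start given by RefSeq, at position 177983155. So in Tex14 the higher methylation stood on the allele that gave the reads, within the gene, and in Gm16432 it stood on the allele that gave almost none, at the start. Within 50 kb of a listed region lay 5 of 42 members, where 8.87% of all genes did. The 3 further regions measured 9 bp near Gm37176, 10 bp near Gm8488 and 98 bp near Gstp2. The region near Gstp2 lay 43.3 kb away, with a level of 0.176 on Spretus and 0.915 on C57. The coverage behind these levels is unknown, there is a single value per allele, and a member with no listed region has no known level.

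A list of imprinted genes, drawn up for loci outside the excluded windows, gave no member. Casd1 and Pon2, among the genes tested, lie within an excluded window on chromosome 6 and could not be members. Of the 18 tested, these included, 6 passed the edgeR test, all toward Spretus, where 2.39% of all genes passed in that direction. Casd1 and Pon2 did not pass (edgeR adjusted p = 0.832 and 0.140). With the library as a block 8 passed, Pon2 among them, where that fit called 22.5% of all genes. Plagl1, a zinc finger transcription factor gene, had the highest mean share of them, at 94.2% ± 5.10 (SD, n = 2), with 132 Spretus against 3 C57 reads in library 1 and 48 Spretus against 5 C57 reads in library 2 (log2 ratio 4.62, SE 0.50, edgeR adjusted p = 4.13e-05). By the lower of the 2 library shares, Nnat stood at 90.7% and Plagl1 at 90.6%. Nnat, which encodes a small membrane protein of neurons, had a mean share of 91.3% ± 0.858 (log2 ratio 3.48, SE 0.35, edgeR adjusted p = 2.29e-05), Rasgrf1 91.2% ± 2.21 and Grb10 86.0% ± 0.493 (SD, n = 2 each). Impact and Inpp5f passed with 76.2% ± 2.50 and 63.0% ± 6.29 (SD, n = 2 each). The 6 imprinted genes thus kept reads of the C57 allele at shares that left them outside the rule.

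Genes listed for known variants between mouse strains gave no member either. Of 10 tested, 1 passed the edgeR test and 4 passed with the library as a block, where 5.43% and 22.5% of all genes passed. The gene that passed was Nnt, the mitochondrial transhydrogenase gene that is known to be partly deleted in C57BL/6J, with 279 Spretus against 179 C57 reads in library 1 and 61 Spretus against 33 C57 reads in library 2 (62.9% ± 2.81, SD, n = 2; log2 ratio 0.83, SE 0.19, edgeR adjusted p = 0.0139). Of the olfactory, vomeronasal and antigen receptor families, in which single alleles are known to be chosen at random in single cells, 7 of 2449 genes could be tested and none was a member. Ighg3 and Vmn1r58 passed toward Spretus, with 80.7% ± 8.04 and 76.1% ± 5.50 (SD, n = 2 each; edgeR adjusted p = 0.00269 and 0.0262), and 4 of the 7 passed with the library as a block. Of all genes 2.39% passed toward Spretus, 5.43% in either direction and 22.5% with the block. Random choice that differs between cells would not show in pooled tissue.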

How the data were processed

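For each of 2 RNA-seq libraries the authors deposited, per the file headers, raw counts of reads per gene assigned to the C57 and the Spretus allele, and FPKM over both alleles. For MethylC-seq the authors deposited 1613 regions that differ between the alleles, with a methylation level per allele as a fraction from 0 to 1; 13 regions hold no levels. The submitters' processing notes name the build mm10 and the tools bedtools 2.2.4, TopHat2 2.0.9, HTSeq 0.6.0 and Cufflinks 2.1.1, without saying what each did. Not given in the sources used here are the assignment of reads to alleles, the gene annotation, the use of strand in counting and the region caller's settings. Listed gene starts count from 0, and 1 was added.

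Allelic imbalance was tested on the counts with edgeR 4.0.16 (glmQLFit, glmQLFTest) in R 4.3.3, with a C57 and a Spretus column per library, TMM scaling, allele as the only term and Benjamini-Hochberg adjustment over all genes with at least 10 reads in each library. Log2 ratios are Spretus over C57. Each SE was worked back from the test, as the absolute log2 ratio over the square root of the F statistic. The residual degrees of freedom were 2 and the common biological coefficient of variation was 0.136. On simulated counts of 11981 genes for this comparison, edgeR recovered 57.0% of genes changed 2-fold and 98.0% of those changed 4-fold, with 4.91% of its calls false. DESeq2 1.42.0, the alternative, recovered 18.0% and 80.0%. The simulated columns were drawn independently, without the pairing of the alleles of a library, so these rates hold for unpaired counts only. The C57 and Spretus columns of a library share 1 RNA sample and are paired through it by design; their deviations were correlated at 0.597 over 7565 genes with at least 200 reads. An alternative fit had the library as a block. It had 1 residual degree of freedom and a common biological coefficient of variation of 0.00988. Its calls therefore allow for less spread than those of the main fit. The libraries differed in total reads per gene beyond sampling noise (chi-square per degree of freedom 3.83). Shares carry exact Clopper-Pearson 95% intervals over both libraries, and a share of 0 a limit of 3 reads of the total. Intervals and limits cover counting error only, since reads carry no molecular identifiers.

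The members, lists and tests were chosen with earlier results of these data known. Values per library were given for members with a gene symbol other than a predicted, Riken or pseudogene one, for the 12 members with most reads, for genes nearest the thresholds, for called neighbours and for regions within 10 kb. The other members, the relatives, the promoters and the T and B cell markers were named after their values were seen. The symbol patterns of the receptor families were narrowed afterwards, since they took in unrelated genes. RefSeq classes, promoters and starts are those of GRCm38.p6, and 34 of 42 members matched. The values of 1 member are not reported here, though its reads are in all counts and sums.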

Additional observations from a re-analysis of the deposited data

How the results depend on the processing

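The number of near-monoallelic genes followed the thresholds. It was 22 with at least 20 reads in each library, 2 with at least 50, 26 with shares under 1% or over 99%, and 73 with shares under 10% or over 90%, against 42 as reported. When 1 library alone had to pass it ranged from 68 (library 2) to 193 (library 1). Calls of allelic imbalance over all autosomal genes numbered 629, against 1290 with no filter on low counts, 255 with DESeq2 and 2603 with the library as a replicate block. With a library total common to both alleles and no TMM, the median log2 ratio of all genes was -0.11, against 0.02 with TMM, and 69.7% of calls lay toward C57, against 56.0%. Called neighbours numbered 10, against 21 of 191 with no filter on low counts, 27 with the replicate block, 5 within 50 kb and 21 within 500 kb. All 10 kept their call and direction under the other fits except 3 that DESeq2 did not call, Gm37266, Gm37593 and H2-T23 (adjusted p = 0.0658, 0.527 and 0.172). Members with a listed methylation region numbered 2 within 10 kb, 1 overlapping and 5 within 50 kb, against 4.15%, 2.75% and 8.87% of all genes. They numbered 2 with regions of at least 200 bp and a difference of at least 0.5, against 1.1% of all genes. The median level in library 1 was 12.4 FPKM with at least 50 reads, over 2 genes. The cause of these differences was not tested, other than the fewer or more genes that a filter or distance takes in. Leaving out a library was not run for the fits, since 1 library leaves no residual degrees of freedom. Depth limits the members: library 2 held 10 to 88 reads for each.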

Other observations

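Reads in library 1 alone met the thresholds for 151 further autosomal genes outside the excluded windows and symbols, of which 60 were read from Spretus and 91 from C57. In library 2, 146 of them had fewer than 10 reads, and 136 of these at least 1 read. For 113 of the 136 every read there came from the same allele as in library 1. A gene with few reads meets this easily, as Myom3 did with 1 read, and no share over genes of like depth was taken. Among the genes with most reads, Wdr27 had 63 Spretus against 3 C57 reads in library 1 and 9 Spretus against 0 C57 reads in library 2. Myoc, which encodes the glycoprotein myocilin, had 1 Spretus against 54 C57 reads in library 1 and 0 Spretus against 9 C57 reads in library 2. These genes were chosen after their values were seen and carry no test.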
